A study of Arabidopsis thaliana with 11 samples.

Results

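The SAUR (SMALL AUXIN UP RNA) genes of *Arabidopsis* form one of the largest groups of early auxin-responsive genes, and 58 of their loci, listed by locus number, were followed here through a peptide treatment and a receptor mutation. A member was measured by the array probes whose RefSeq transcript belongs to its locus, and 52 of the 58 loci had such a probe, out of 25433 loci with a probe on the array. Of these, 49 members were bright enough to be tested, among 21930 tested loci. The 6 members without a probe were SAUR53, SAUR10, SAUR29, SAUR4, SAUR24 and SAUR30, and the 3 that were too dim to test were SAUR45, SAUR47 and SAUR11. By the TAIR10.1 annotation, 34 of the 58 members lie in 8 chromosomal clusters, in which neighbouring members are at most 50 kb apart, and the other 24 stand alone. The clusters contributed 30 tested members and the single genes 19.

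The samples were whole seedlings of the ecotype Columbia-0 (WT) and of psy1r, a knockout line for the receptor kinase PSY1R. Both lines were grown in liquid culture under continuous light for about a week, and seedlings were either left untreated or given 10 nM PSY1, a secreted tyrosine-sulfated peptide that promotes cell expansion, for 4 h. Untreated WT, treated WT and untreated psy1r have 3 arrays each and treated psy1r has 2, its replicates 1 and 3, each from a separate sample according to the series. Treated groups are written WT + PSY1 and psy1r + PSY1. The mutant is represented by 1 line.

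SAUR proteins are short, and their mRNAs are quickly made and quickly lost. Auxin binds the TIR1 and AFB receptors, Aux/IAA repressors are destroyed, and auxin response factors then switch on many SAUR genes, while brassinosteroid-regulated and light-regulated factors act on several of the same promoters. Several SAUR proteins bind and inhibit phosphatases of the PP2C.D group, which keeps the plasma membrane proton ATPase active, so that the cell wall is acidified and the cell can expand. Not all SAUR genes promote growth, and neighbours in a cluster are often near-identical copies.

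Sequence is given for the pair of members that passed the test for a change after PSY1 in WT, SAUR64 (AT1G29450) on chromosome 1 and SAUR26 (AT3G03850) on chromosome 3. These are the PCR primers that the study designed to measure the same transcripts by another method, written 5′ to 3′, and they name the amplified targets more exactly than a family name does.
SAUR64 forward: cgctaagttacctgagta
SAUR64 reverse: gcactagagattgacatta
SAUR26 forward: agagatggaggagtattc
SAUR26 reverse: ctaagtcgtcaagtgatat
The forward primers have 18 bases and the reverse primers 19. The array probes that gave the values below are other sequences, and how far a probe also binds the transcript of a neighbouring copy was not tested.

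All levels below are log2 signals relative to the 75th percentile of the same array, so that 0 is the level of that percentile and each unit is a doubling. A member was called changed when its adjusted p in limma was below 0.05 and its change was above 2-fold. The receptor transcript followed the labels. PSY1R (AT1G72300) had log2 signals of -1.25, -1.22 and -1.89 in WT, -1.51, -1.72 and -1.48 in WT + PSY1, -6.6, -6.54 and -8.58 in psy1r, and -7.55 and -4.76 in psy1r + PSY1. The mutant arrays were thus all below all arrays of WT, with a log2 difference of -5.79 between untreated lines (adjusted p = 0.0103) and of -4.58 between treated lines (adjusted p = 0.0344). Its probe was well above background on 1 of 3 psy1r arrays and 1 of 2 psy1r + PSY1 arrays, so these differences rest in part on readings at background.

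The arrays differed in ways that the groups do not explain, and the SAUR genes moved strongly with them. Distances were taken over the 30180 probes that were well above background on all arrays. The median log2 distance between untreated WT arrays was 0.07 for replicates 1 and 2, and 0.29 and 0.28 for replicate 3 against each of them. The untreated psy1r arrays had 0.08, 0.33 and 0.32 for the same pairs, the pair of psy1r + PSY1 arrays had 0.32, and all pairs of WT + PSY1 had 0.07 to 0.09. Over the 49 SAUR members the median difference between replicates 1 and 3 was 0.74 in WT and 0.85 in psy1r, with only 0.07 in WT + PSY1. Of these members 38 were well above background on all arrays, so the members include dimmer probes than the 30180. Whether the arrays that lie so close together came from separate cultures could not be told from these values, and p-values measure the spread between these arrays. Arrays with the same replicate number shared a slide. Replicate 3 of psy1r + PSY1 also carried a summed seed and embryo marker signal of 28.3 times the 75th percentile over 13 markers, against 0.398 to 1.55 on the other arrays, with all 13 above background. Green shoot markers summed to between 2140 and 2670 and root markers to between 72.7 and 110 on all arrays, and all 16 shoot markers and at least 13 of 15 root markers were above background on each.

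PSY1 treatment of WT was accompanied by higher signals in most SAUR genes, but few single genes passed the test. Of the 49 tested members, 33 had a positive and 16 a negative log2 change, and the median was 0.34, while 47.5% of all tested loci were positive and their median was -0.02. SAUR64 and SAUR26 were called higher and 0 members lower in limma, where 0.223% of all loci were called, 0.169% higher and 0.0547% lower. At an unadjusted p below 0.05 there were 15 members, of which SAUR36 and SAUR55 had negative values, where 22.3% of all loci had such a p. In 22 members the treated arrays were all higher than the untreated WT arrays and in 9 all were lower, without overlap, against 22.9% and 24.2% of all loci. Compared within a slide, the member median was 0.24, 0.19 and 0.50 on slides 1, 2 and 3, with 33, 29 and 31 members positive. Without replicate 3 of any group it was 0.23.

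**Figure D1:**
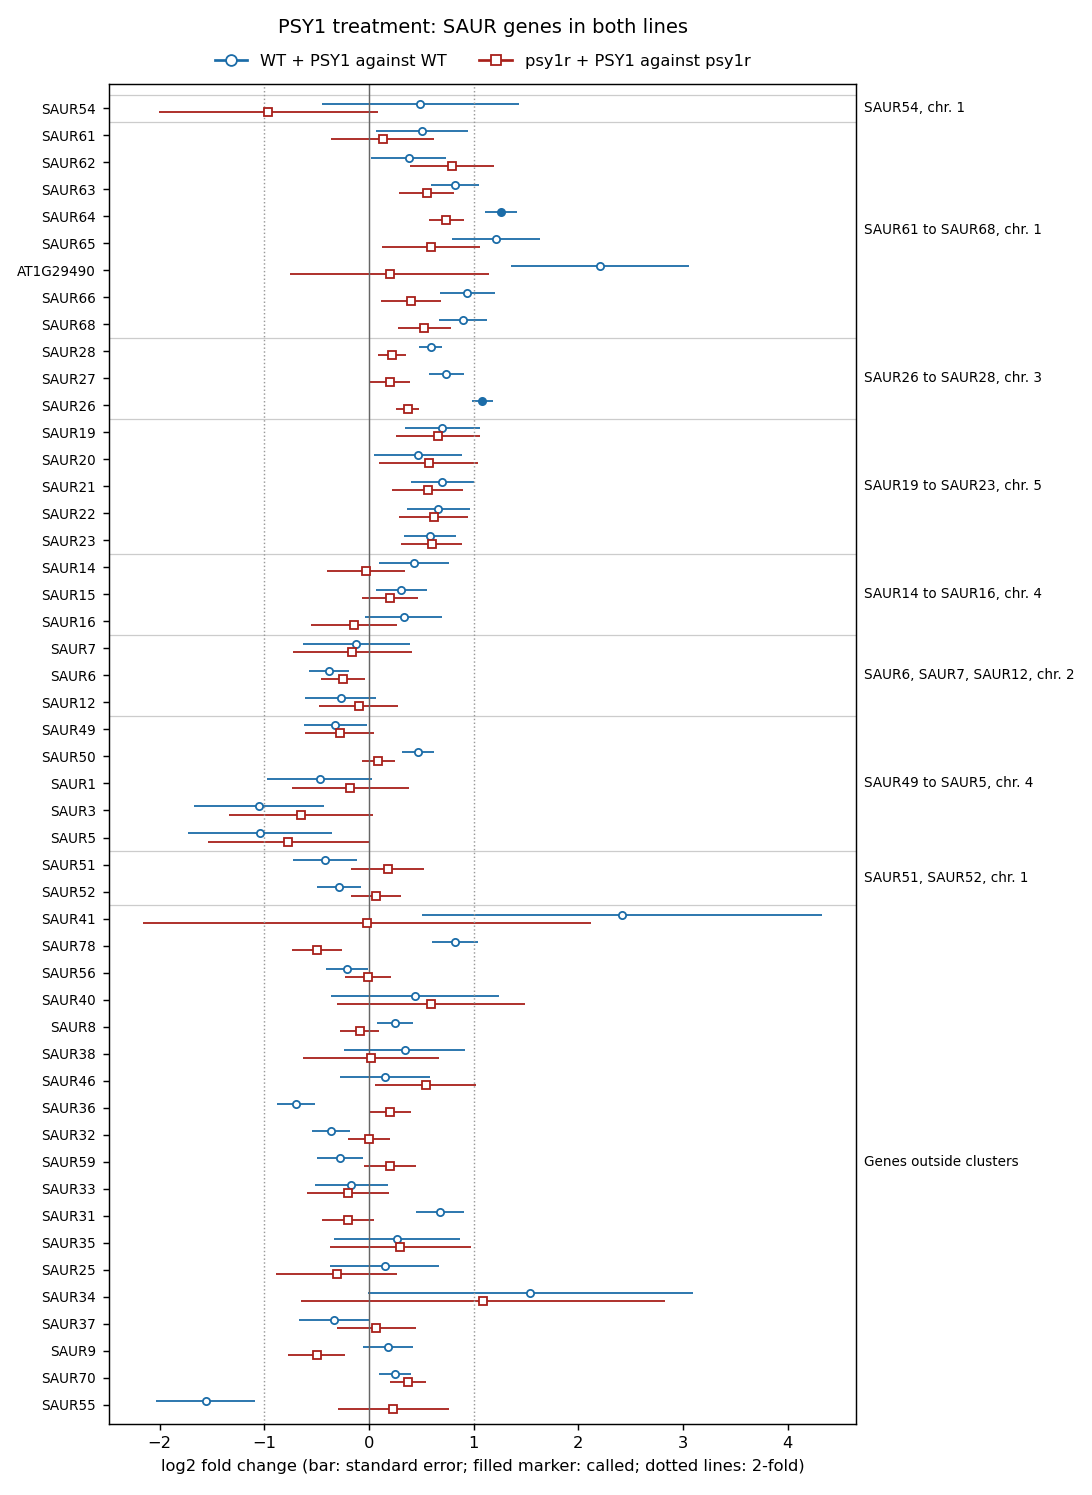
Log2 fold changes of the 49 tested SAUR members (rows, grouped by chromosomal cluster) after PSY1 in WT (circles) and in psy1r (squares), with bars for the standard error, filled markers for called changes and dotted lines at 2-fold. All 8 members of the SAUR61 to SAUR68 cluster, all 3 of SAUR26 to SAUR28 and all 5 of SAUR19 to SAUR23 lie to the right of 0 in both lines, and only SAUR64 and SAUR26 are filled, in WT.

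The family did not move as one block, and the direction went with the chromosomal cluster. All tested members of SAUR61 to SAUR68 on chromosome 1 and of SAUR14 to SAUR16 on chromosome 4 had positive log2 changes after PSY1. So did those of the clusters on chromosomes 3 and 5. The positive value of SAUR16 rested on 1 WT array. The chromosome 2 cluster, SAUR49 to SAUR5 on chromosome 4 and a pair on chromosome 1 were mostly lower. The strongest group was SAUR61 to SAUR68 on chromosome 1, the SAUR63 subfamily, whose products promote elongation of hypocotyls and stamen filaments. All 8 members were positive in WT, with a median log2 change of 0.92 and a range of 0.38 to 2.21, and in 6 of them the arrays of the groups did not overlap.

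SAUR64 carried the call in this cluster. Its log2 signals were -2.11, -1.79 and -2.44 in WT and -0.89, -0.84 and -0.84 in WT + PSY1, and -2.00, -1.97 and -1.99 in psy1r and -1.16 and -1.34 in psy1r + PSY1. Treated arrays were above untreated arrays in both lines, without overlap. In WT the log2 change was 1.26 with a standard error of 0.15, a 2.39-fold rise (adjusted p = 0.0302), and it was 1.22, 0.95 and 1.60 within slides 1, 2 and 3. The adjusted p was 0.0749 in the fit that blocks on slide and 0.061 with RMA steps in place of percentile scaling, both without a call. The call was also lost without WT replicate 1 (adjusted p = 0.136) and without any replicate of WT + PSY1 (0.154, 0.148 and 0.144). It was lost without psy1r replicate 1 or 2 (0.073 and 0.0754) as well. In these fits and with the block, 0% to 0.0456% of all loci were called. The share was 0.0547% with RMA steps and 0.223% in the main fit. The change itself stayed between 1.08 and 1.42 under all alternatives.

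The other members of this cluster moved the same way without a call. SAUR63, with the highest mean signal of the cluster, had log2 signals of -0.31, -0.39 and -1.02 in WT and 0.30, 0.23 and 0.23 in WT + PSY1, which do not overlap (log2 change 0.82, adjusted p = 0.112). SAUR65, SAUR66 and SAUR68 had log2 changes of 1.21, 0.94 and 0.90, with adjusted p of 0.159, 0.111 and 0.0927. AT1G29490, which shares the synonym SAUR68 with AT1G29510, had the highest value, 2.21, but its probe was dim and spread widely, from -9.06 to -6.94 in WT and from -7.09 to -4.23 in WT + PSY1 (adjusted p = 0.189). Its groups overlapped. Against the background floor in WT the difference of group means was at least 4.04-fold, but single pairs of arrays differed. Within slides 1, 2 and 3 the log2 difference was 3.70, 0.22 and 2.71.

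The chromosome 3 cluster was the steadiest. SAUR26 had log2 signals of -3.50, -3.38 and -3.62 in WT, -2.44, -2.37 and -2.46 in WT + PSY1, -2.84, -2.83 and -2.79 in psy1r, and -2.36 and -2.54 in psy1r + PSY1. Untreated WT was the lowest group, untreated psy1r lay between it and both treated groups, and replicate 3 stood with its group. The rise in WT was 1.08 with a standard error of 0.10 on the log2 scale, or 2.11-fold (adjusted p = 0.0139), and it was 1.06, 1.02 and 1.16 within slides 1, 2 and 3. The adjusted p was 0.0576 in the fit that blocks on slide, where 0% of all loci were called. It was 0.106 and 0.0545 without WT replicate 1 or 2, where 0.00912% and 0.0228% of all loci were called. Without replicate 1, 2 or 3 of WT + PSY1 it was 0.09, 0.101 and 0.0825, with 0.0182%, 0.00912% and 0% of all loci called. The main fit called 0.223%, so the loss of calls without these arrays was not particular to SAUR26. With the normexp background correction the change was 0.90 (adjusted p = 0.011), below 2-fold.

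SAUR27 and SAUR28, its neighbours, had log2 changes of 0.74 and 0.59 in WT (adjusted p = 0.0823 and 0.0593), and all 3 genes had WT + PSY1 arrays above all WT arrays. SAUR28, with the highest mean signal of the cluster, went from -3.26, -3.22 and -3.20 to -2.71, -2.56 and -2.63. The median of the cluster was 0.80, 0.67 and 0.75 on slides 1, 2 and 3, nearly the same on each.

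The SAUR19 to SAUR24 cluster on chromosome 5 holds the best-studied growth-promoting SAUR genes, whose products inhibit PP2C.D phosphatases. All 5 tested genes, SAUR19 to SAUR23, were higher on every WT + PSY1 array than on any WT array, with log2 changes of 0.47 to 0.70 and a median of 0.66, but none was called. SAUR22 had log2 signals of -0.79, -0.79 and -1.75 in WT and -0.40, -0.45 and -0.50 in WT + PSY1 (adjusted p = 0.25). Most of the difference came from replicate 3 of WT, since the cluster median was 0.39, 0.31 and 1.25 within slides 1, 2 and 3. In psy1r the replicate 3 array was low in the same way, with SAUR22 at -0.69, -0.91 and -1.54. Across the 11 arrays these genes followed each other closely, with a median pairwise correlation of 0.96 over 10 pairs, against 0.06 over the 1176 pairs of all members. The 5 probes share arrays and target near-identical transcripts, so their values are not independent.

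**Figure D2:**
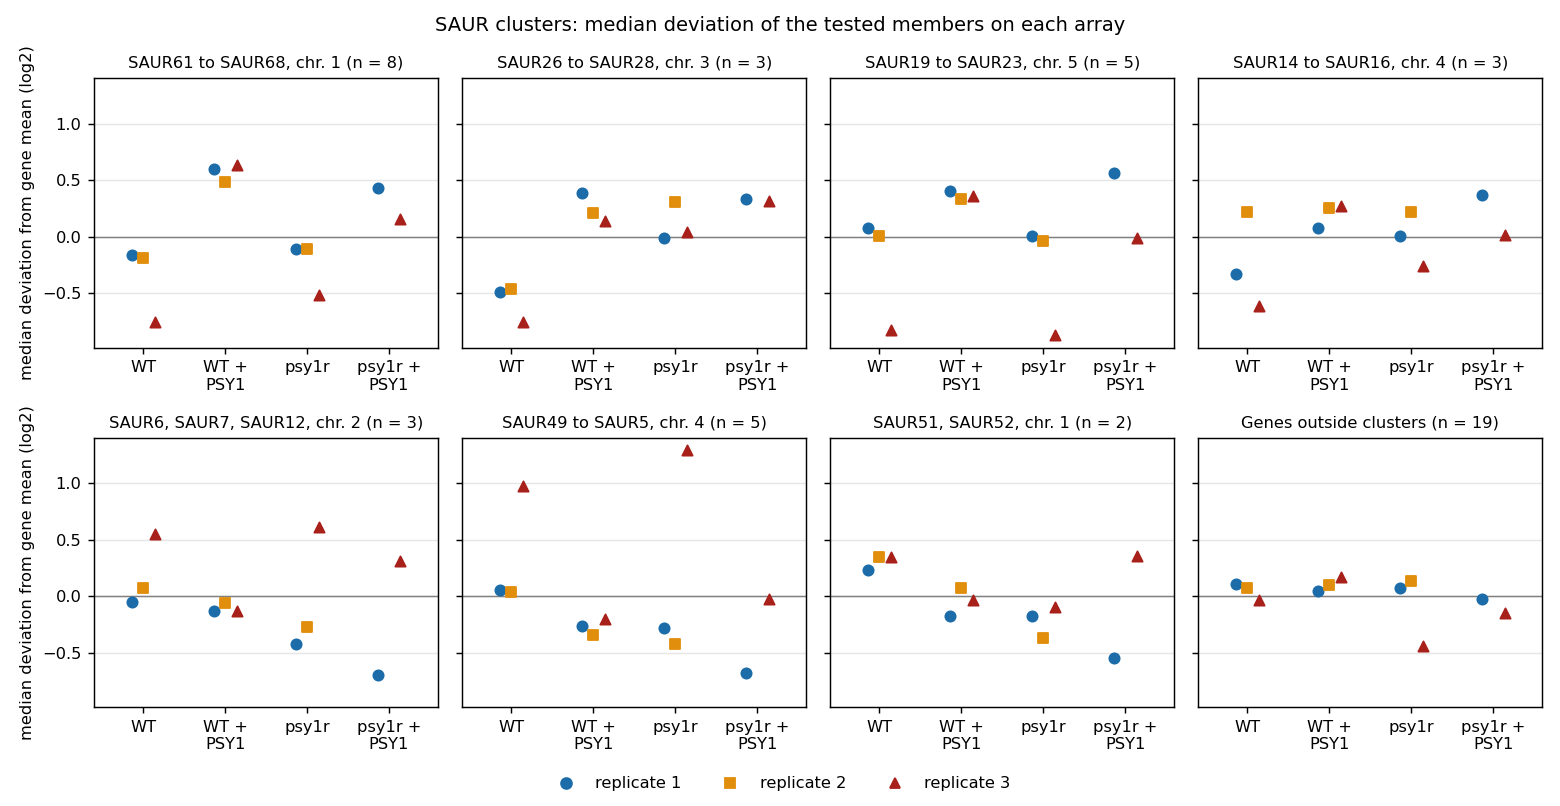
Median deviation of the tested members of each cluster from their own means over the 11 arrays (log2 units), for each array, by group (horizontal axis) and replicate (symbol). In SAUR61 to SAUR68 the WT arrays stand at -0.16, -0.19 and -0.75 and the WT + PSY1 arrays at 0.60, 0.48 and 0.63, while in SAUR49 to SAUR5 replicate 3 of WT and psy1r stands at 0.97 and 1.29, above all other arrays.

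The SAUR49 to SAUR5 cluster on chromosome 4 went the other way in 4 of 5 tested genes, with a median log2 change of -0.47 in WT. SAUR3 and SAUR5 had the lowest values, -1.05 and -1.04 (adjusted p = 0.365 and 0.415). SAUR5 had log2 signals of -2.90, -2.96 and -0.79 in WT, -3.25, -3.31 and -3.22 in WT + PSY1, -2.92, -2.93 and -0.82 in psy1r and -3.32 and -2.66 in psy1r + PSY1. Treated arrays were below untreated arrays in WT, and the replicate 3 arrays of both untreated groups were more than 2 units above the rest of their group. SAUR3 showed the same pair of high arrays, with -1.89, -1.92 and -0.75 in WT and -3, -2.88 and -0.62 in psy1r. The median of the cluster was -0.18, -0.35 and -1.18 within slides 1, 2 and 3. The exception was SAUR50, which takes part in light-dependent opening of cotyledons and had the highest mean signal here. It went from -0.56, -0.58 and -1.11 to -0.33, -0.21 and -0.31 (log2 change 0.47, adjusted p = 0.134), opposite to its neighbours.

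The other clusters changed less. SAUR14, SAUR15 and SAUR16 on chromosome 4 were positive in WT, at 0.43, 0.31 and 0.33, where SAUR15 is the classic auxin-induced gene also known as SAUR-AC1. The value of SAUR16 rested on WT replicate 1, at -3.09 against -1.83 and -1.82 in replicates 2 and 3. Within slides 1, 2 and 3 its difference was 1.05, -0.04 and -0.01. SAUR14, with the highest mean signal of the cluster, had log2 signals of 1.69, 1.74 and 0.67 in WT and 1.74, 1.86 and 1.79 in WT + PSY1, so that only replicate 3 of WT stood apart. SAUR6, SAUR7 and SAUR12 on chromosome 2 were negative, with a median of -0.27, and SAUR6 went from -1.39, -1.32 and -0.71 to -1.48, -1.57 and -1.52 (adjusted p = 0.276). SAUR51 and SAUR52 on chromosome 1 were also negative, at -0.42 and -0.29, with SAUR51 at -4.01, -3.83 and -3.49 in WT and -4.29, -4.07 and -4.23 in WT + PSY1 (adjusted p = 0.47). SAUR54, the single tested gene of its cluster, was at or near background on several arrays and had a log2 change of 0.49 (adjusted p = 0.802).

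Among the 19 genes outside clusters the median in WT was 0.18, with 12 positive, where 47.5% of all loci were positive. No gene was called, where 0.223% of all loci were. An unadjusted p below 0.05 in limma was reached by 4 genes, near the share of 22.3% over all loci. SAUR78, whose product associates with ethylene receptors, had the highest mean signal of the single genes. Its log2 signals were 4.37, 4.38 and 3.82 in WT and 5.03, 4.95 and 5.05 in WT + PSY1, without overlap (log2 change 0.82, adjusted p = 0.0999). SAUR55 had the lowest value, -1.56 (adjusted p = 0.127), with -3.74, -3.63 and -1.72 in WT and -4.76, -4.39 and -4.62 in WT + PSY1. SAUR36, a senescence-associated SAUR that restrains cell growth in leaves, had a log2 change of -0.70, with -1.46, -1.44 and -1.03 against -2.07, -1.86 and -2.10 (adjusted p = 0.0964). Both SAUR55 and SAUR36 were lower on all treated than on all untreated WT arrays.

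The highest fitted values of the single genes rested on single arrays. SAUR41, a SAUR of the stele and the endodermis that promotes hypocotyl growth, had a log2 change of 2.42, but it was at -9.18 in WT replicate 1 and between -1.34 and 0.01 on the other 10 arrays. Without that array the change was -0.36. It was 1 of 97 probes that were below background on WT replicate 1 and above it on all other arrays. SAUR34 had a log2 change of 1.54 and was at -4.03, -4.10 and -8.18 in WT and -2.97, -2.83 and -8.20 in psy1r, so that both untreated replicate 3 arrays were low, against -4.00, -3.73 and -3.96 in WT + PSY1. Neither gene was called.

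**Figure D3:**
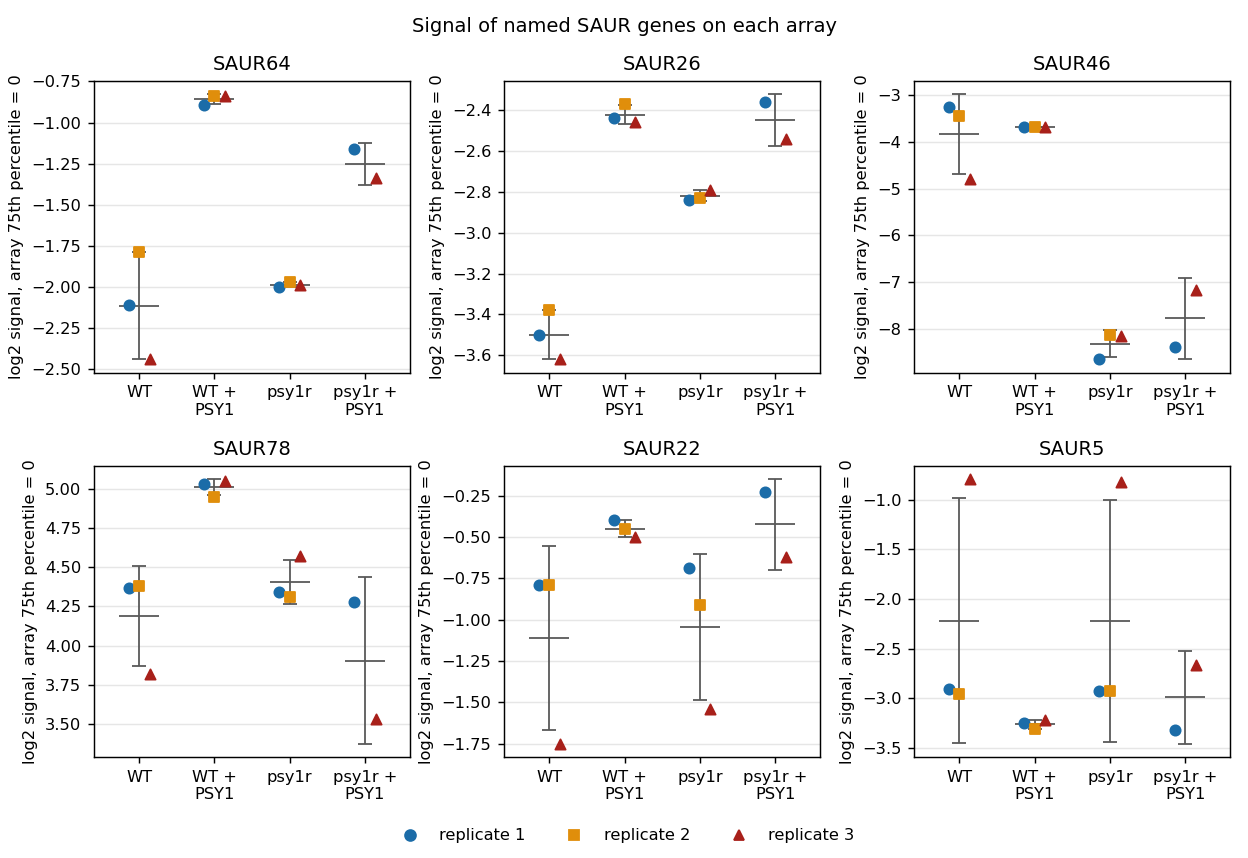
Log2 signal relative to the 75th percentile of the array for SAUR64, SAUR26, SAUR46, SAUR78, SAUR22 and SAUR5 on each of the 11 arrays, by group (horizontal axis) and replicate (symbol), with the group mean and SD (n = 3, and n = 2 for psy1r + PSY1). SAUR26 stands between -3.62 and -3.38 in WT and above -2.85 elsewhere, SAUR46 stands below -7 on all psy1r arrays, and SAUR5 stands near -0.8 in replicate 3 of both untreated groups.

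In psy1r, PSY1 was accompanied by the same direction as in WT in some clusters but not in others, with no call in limma. Of 49 members, 31 were positive with a median of 0.18, where 52.4% of all loci were positive and their median was 0.01. No member was called in limma, where 0.00912% of all loci were called, all of them higher (0% lower). An unadjusted p below 0.05 was reached by 2 members, against 5.43% of all loci. The methods' t-test called 0 members and 0% of all loci. In 9 members the treated psy1r arrays were all higher than the untreated ones and in 1 all were lower, against 7.48% and 7.23% of all loci. All 8 genes of SAUR61 to SAUR68 were positive with a median of 0.54, all 5 of SAUR19 to SAUR23 with a median of 0.60, and all 3 of SAUR26 to SAUR28 with a median of 0.22. The chromosome 2 cluster and SAUR49 to SAUR5 had negative medians, -0.16 and -0.28, as in WT. SAUR14 to SAUR16 had a median of -0.03 with 1 of 3 positive, against 0.33 in WT. SAUR51 and SAUR52 had a median of 0.12, against -0.35 in WT. SAUR64 had a log2 change of 0.74 (adjusted p = 0.365) and SAUR62 of 0.79 (adjusted p = 0.99), the highest values after SAUR34 with 1.09 (adjusted p = 1). SAUR54, SAUR5 and SAUR3 had the lowest log2 changes, -0.96, -0.77 and -0.65. SAUR54 was well above background on 1 of 3 psy1r arrays and on 0 of 2 after PSY1. Its groups overlapped, with 0.16 and -3.35 within slides 1 and 3, so no bound is given. Within slides 1 and 3 the member median was 0.12 and 0.32. This group has 2 arrays, and replicate 3 of it carried the seed marker signal, whose part in these values was not tested. Without replicate 3 of any group, which leaves psy1r + PSY1 with 1 array, SAUR25 had a log2 change of 1.08, against -0.31 with all arrays. Its psy1r + PSY1 signals were -5.23 in replicate 1 and -7.39 in replicate 3, where it was not well above background. Without replicate 1 of psy1r + PSY1 SAUR9 was called lower, with 0.301% of all loci called. With all arrays its log2 change was -0.50, and a second SAUR9 probe had -0.01.

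The direct test of whether PSY1 responses differed between the lines called no member, while 0.0547% of all loci were called, 0.0365% higher and 0.0182% lower. The median difference, psy1r response minus WT response, was -0.04, with 21 members positive and 28 negative, where 51.8% of all loci were positive, and 5 had an unadjusted p below 0.05 in limma, against 12.4% of all loci. The methods' t-test called 0. With 1 array left out the median ranged from -0.37 to -0.05, and it was lowest without psy1r replicate 3 (-0.37), without replicate 1 of psy1r + PSY1 (-0.31) and without WT replicate 2 (-0.17). SAUR26 had a difference of -0.71 (standard error 0.15, adjusted p = 0.198), with -0.58 and -0.91 on slides 1 and 3. SAUR78 had a difference of -1.32 (standard error 0.32, adjusted p = 0.248), with -0.72 and -2.27 on slides 1 and 3. Its signals were 4.34, 4.31 and 4.57 in psy1r and 4.28 and 3.53 in psy1r + PSY1. The lower of the treated arrays was replicate 3, which carried the seed marker signal. The log2 change after PSY1 was 0.82 in WT and -0.50 in psy1r (adjusted p = 0.0999 and 0.967 in limma), neither called. SAUR78 and SAUR9 were called lower in this test once replicate 1 of psy1r + PSY1 was left out, which leaves that group with its replicate 3 alone, and 2.16% of all loci were then called. With all arrays SAUR9 had a difference of -0.69 and its second probe 0.09. For SAUR64 the difference was -0.52 (standard error 0.23, adjusted p = 0.446). The lowest fitted differences were those of SAUR41 at -2.44, which rests on WT replicate 1, and of AT1G29490 at -2.01 and SAUR54 at -1.44, each with a group not well above background on any array. The highest were SAUR55 at 1.79, SAUR36 at 0.91 and SAUR51 at 0.60, all well above background on all 11 arrays, and SAUR36 had 0.63 and 1.67 on slides 1 and 3 (adjusted p = 0.311).

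Without treatment, psy1r and WT differed in both directions over the family. The median of psy1r against WT was 0.00, from -0.12 without WT replicate 3 to 0.20 without psy1r replicate 3, with 24 members positive and 25 negative, where 46.6% of all loci were positive with a median of -0.03. One member was called, SAUR46, which was lower, where 0.88% of all loci were called, 0.328% higher and 0.552% lower. At an unadjusted p below 0.05 there were 10 members, against 17.5% of all loci. In 5 members the psy1r arrays lay above all WT arrays and in 6 below, against 10.5% and 12% of all loci. The cluster on chromosome 3 was the clearest exception to the median, with all 3 genes higher in psy1r without overlap and a median of 0.60. SAUR26 had a log2 difference of 0.68 with a standard error of 0.10, or 1.60-fold (adjusted p = 0.0178), below the limit of 2-fold, where 1.47% of all loci had an adjusted p below 0.05, and SAUR28 and SAUR27 were 0.56 and 0.60 higher (adjusted p = 0.0542 and 0.138). This comparison and that of WT + PSY1 use the same WT arrays.

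SAUR46 (AT2G37030) had the largest difference between the lines. Its log2 signals were -3.24, -3.44 and -4.80 in WT, -3.67, -3.68 and -3.67 in WT + PSY1, -8.65, -8.14 and -8.16 in psy1r, and -8.39 and -7.16 in psy1r + PSY1. All psy1r arrays were not well above background and all WT arrays were, and the groups were far apart. The signal was at least 19.9-fold lower in untreated psy1r than in WT (adjusted p = 0.00342) and at least 17.2-fold lower in treated psy1r than in treated WT (adjusted p = 0.0106). Under PSY1 the signal in WT differed by 0.15 from untreated WT (adjusted p = 0.869). Blocking on slide gave adjusted p of 0.0181 and 0.0472, and both calls held. The call between treated lines was lost without any 1 replicate of WT + PSY1 (adjusted p = 0.0553, 0.0593 and 0.0563). In these fits 0.0456%, 0.0547% and 0.109% of all loci were called, against 1.09% in the main fit. Both calls ended with replicates 1 and 2 averaged as 1 sample (adjusted p = 0.334 and 0.3) and with the methods' t-test (0.1 and 0.0668). With the normexp correction, which adds an offset of 50 to all signals, both were called with log2 differences of only -1.32 and -1.40. In RNA from whole seedlings, fewer cells that express a gene and less RNA per cell cannot be told apart.

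**Figure D4:**
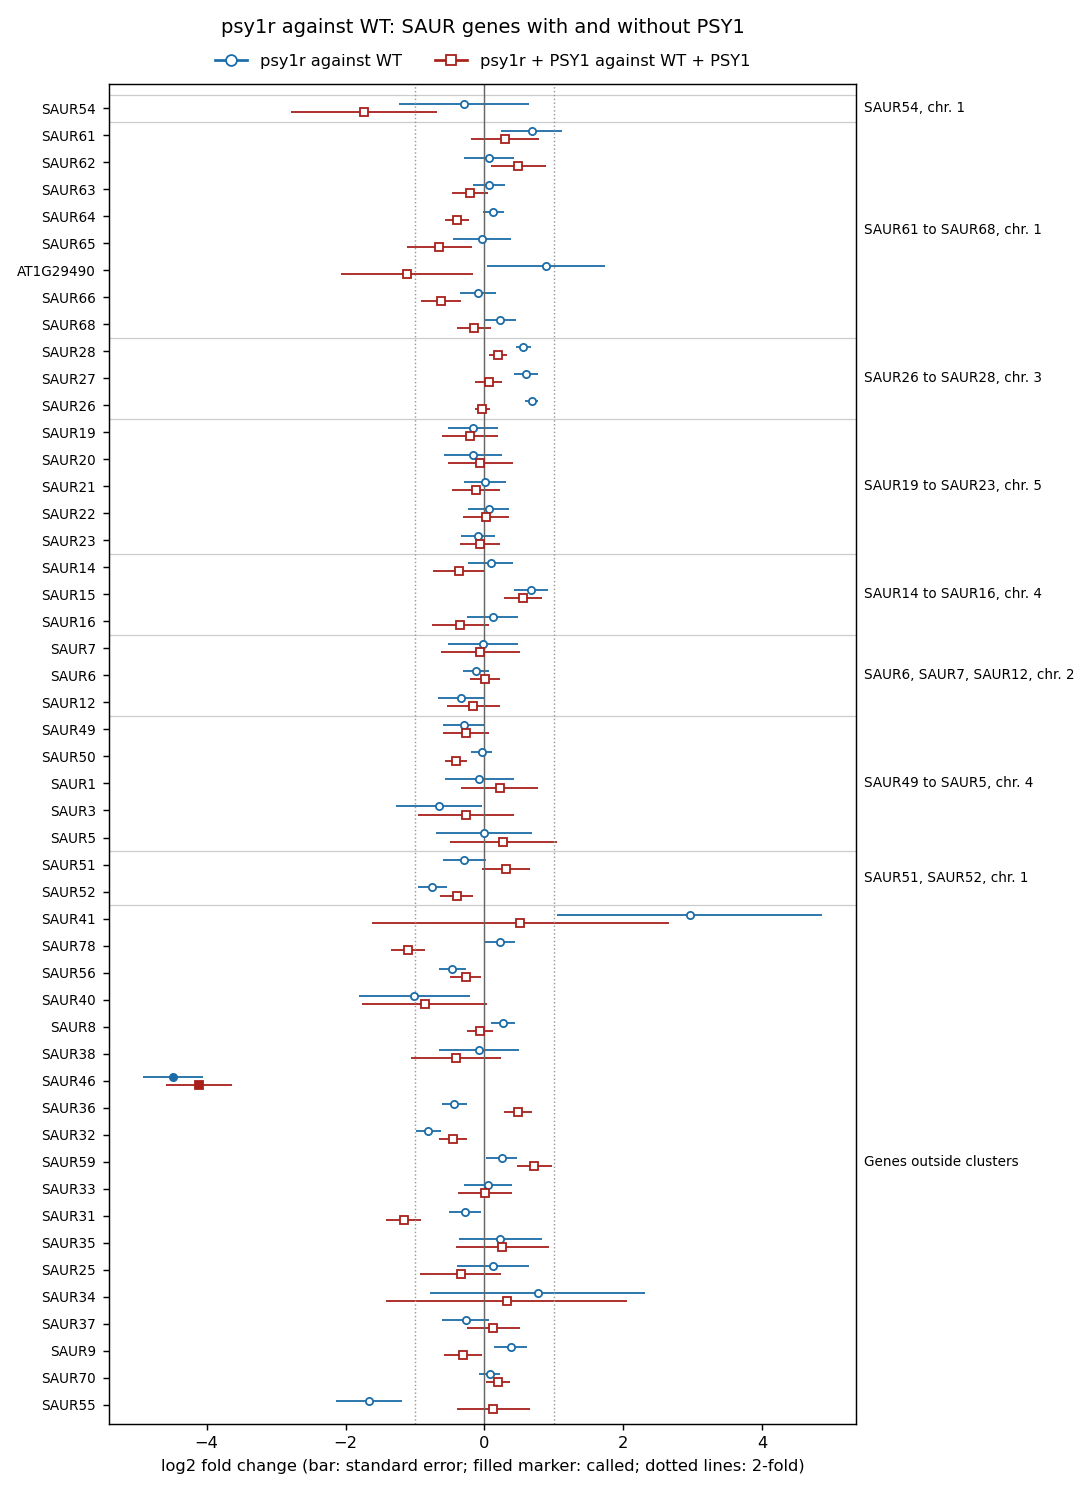
Log2 fold changes of the 49 tested SAUR members (rows, grouped by chromosomal cluster) for psy1r against WT without PSY1 (circles) and with PSY1 (squares), with bars for the standard error, filled markers for called changes and dotted lines at 2-fold. SAUR46 is the only filled gene, at -4.49 and -4.11, and the 3 genes of the SAUR26 to SAUR28 cluster lie at 0.56 to 0.68 without PSY1 and at -0.03 to 0.19 with it.

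Other single genes differed between the untreated lines without a call. SAUR55 had a log2 difference of -1.66 (adjusted p = 0.133), at -4.79, -4.73 and -4.55 in psy1r against -3.74, -3.63 and -1.72 in WT. SAUR40 had a difference of -1.01 (adjusted p = 0.579), and replicates 1 and 2 of psy1r, at -8.67 and -8.90, stood below replicate 3 at -6.40. Both low readings were not well above background, nor was WT replicate 1 at -7.36. The value of SAUR40 without replicate 3, given below, thus rests largely on readings at background. SAUR32, which acts in the apical hook, was at 0.10, 0.24 and 0.03 in WT and at -0.47, -0.44 and -1.14 in psy1r, which do not overlap (log2 difference -0.81, adjusted p = 0.0687). The highest values were those of SAUR41 and SAUR34, at 2.96 and 0.77, with the single-array readings given above, and of AT1G29490, at 0.89 (adjusted p = 0.653). AT1G29490 was well above background on 1 of 3 psy1r arrays and 0 of 3 WT arrays. Its groups overlapped, so no bound is given. Without replicate 3 of any group 5 members were called, namely SAUR46, SAUR40, SAUR3 and SAUR55 as lower and SAUR34 as higher, with log2 differences of -5.05, -1.43, -1.04, -1.08 and 1.16, and 5.54% of all loci were then called. Leaving out WT replicate 3 alone gave the calls of SAUR46 and SAUR55, with 2.16% of all loci called.

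Between the treated lines the median was -0.12, with 19 members positive and 30 negative, where 49.5% of all loci were positive with a median of 0.00. SAUR46 was called lower, and 1.09% of all loci were called, 0.424% higher and 0.661% lower. At an unadjusted p below 0.05 there were 7 members, against 21.6% of all loci. In 11 members the psy1r + PSY1 arrays were below all WT + PSY1 arrays and in 5 above, against 26.1% and 23.2% of all loci. SAUR78 and SAUR31 had log2 differences of -1.10 and -1.16 (adjusted p = 0.0612 and 0.0617). SAUR31 had log2 signals of -2.96, -2.71 and -2.77 in WT + PSY1 and -3.66 and -4.29 in psy1r + PSY1, without overlap. Both genes were called lower with RMA steps, and also without WT replicate 3, without psy1r replicate 3 and without replicate 1 of psy1r + PSY1, where 2.51%, 2.35%, 2.92% and 2.99% of all loci were called. SAUR54 was not called, with a log2 difference of -1.73 (standard error 1.05, adjusted p = 0.39) and group means at least 3.33-fold apart. Its log2 signals were -6.35, -7.66 and -5.60 in WT + PSY1. In psy1r + PSY1 they were -7.76 and -8.78, both not well above background, so that the closest arrays of the groups nearly met. The highest values were 0.72 for SAUR59, 0.56 for SAUR15 and 0.52 for SAUR41 (adjusted p = 0.152, 0.284 and 0.918), and SAUR59 was at -0.63, -0.69 and -0.63 in WT + PSY1 and at 0.39 and -0.24 in psy1r + PSY1. Without replicate 3 of any group the calls were SAUR46, SAUR40 and SAUR7 as lower and SAUR59 and SAUR34 as higher, with 5.79% of all loci called. With replicate 3 left out, the only psy1r + PSY1 array was not well above background for SAUR46, SAUR40 and SAUR7, at -8.39, -8.68 and -7.75. SAUR26 was level between the treated lines, with a log2 difference of -0.03 (standard error 0.11).

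Genes around the SAUR proteins in the same pathway were measured alongside. The 9 PP2C.D phosphatases, the targets of SAUR proteins, had a median of 0.15 after PSY1 in WT with none called in limma. One of them, AT5G02760, was called lower in psy1r than in WT, with log2 differences of -1.15 untreated and -1.09 treated (standard errors 0.10 and 0.12, adjusted p = 0.00314 and 0.00837). None of the 10 tested plasma membrane proton ATPase genes and none of the 15 regulators of SAUR transcription (TIR1 and AFB receptors, auxin response factors, PIF factors, BZR1 and BES1) was called in any of the 5 comparisons. Among the regulators, 3 of 15 were positive after PSY1 in WT, with a median of -0.20.

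Other early auxin response genes were mostly positive after PSY1, without a call. The median of these 11 genes was 0.50 after PSY1 in WT, with 8 positive, and 0.38 in psy1r, with 9 positive, and none was called. ACS4, an ethylene synthesis gene, GH3.3, an auxin-conjugating enzyme, and IAA5, an Aux/IAA repressor, had log2 changes of 1.40, 1.37 and 1.32 in WT (adjusted p = 0.105, 0.126 and 0.525), and LBD16, IAA29 and GH3.5 (WES1) had -0.63, -0.25 and -0.09. Their summed signal, in units of the 75th percentile, was 26.9, 26.5 and 17.1 in WT, 34.8, 34.7 and 33.8 in WT + PSY1, 36.5, 38.2 and 15.0 in psy1r, and 40.5 and 22.3 in psy1r + PSY1. Replicate 3 was the lowest array of each of these groups, most clearly in both untreated groups, where the SAUR19 to SAUR23 genes were also lowest. The part of these array differences in the SAUR values was not tested. Of 19 further SAUR loci outside the list, 16 were tested, with a median of 0.16 after PSY1 in WT. One of them, AT5G20820, was called lower in untreated psy1r than in WT, with a log2 difference of -1.37 and a standard error of 0.12 (adjusted p = 0.00224).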

How the data were processed

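The authors deposited, for each of the 11 one-color arrays (Arabidopsis V4, 43803 spots without controls), the spot intensity written by Agilent Feature Extraction 10.7.3.1, and a table of log2 values centred on each probe. That table correlated at 0.9999 with intensities divided by the 75th percentile of each array and at 0.8123 to 0.9396 with RMA steps, the method the study names. Percentile scaling was therefore used and RMA was an alternative. Control spots and outlier spots (3 to 97 per array) were left out, no spot was saturated, and repeated spots of a probe were averaged. Testing required a signal well above background on 2 or more arrays, which 36382 of 43603 probes had. Loci came from RefSeq transcripts through TAIR10.1 (34358 probes), and the brightest probe stood for a locus. The number of arrays limits the precision.

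All 4 groups entered 1 linear model (limma 3.58.1 under R 4.3.3, with eBayes), with Benjamini-Hochberg adjustment over all tested probes. The fit was tested on simulated data. The study's methods name a one-way ANOVA with Benjamini-Hochberg correction. What is called the methods' t-test here was an alternative to limma, and the study does not name a t-test. A fold against a group not well above background is a lower bound on the ratio of group means. It is taken between the mean of the bright group and a floor. The floor is the mean, per array, of the lowest signal well above background or the probe's own signal where higher. No bound is given where the brighter group was well above background on only 1 array or where the groups overlapped. Named genes were PSY1R, called members, members the study names, the 3 highest and 3 lowest members of each comparison and the brightest member of each cluster. Others were named after their values were seen. The members and lists were chosen with earlier results of these data known. Same-numbered arrays shared a slide according to the file headers, so the number was also fitted as a block. Deviations of same-numbered arrays correlated at -0.15 to 0.50 (median 0.24, 10 of 15 pairs above 0.1), other pairs at a median of -0.12. The spread between replicates may in part be technical. The promoters and probe sequences of the members were not used here.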

Additional observations from a re-analysis of the deposited data

How the results depend on the processing

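The cause of the changes below was not tested unless stated. For PSY1 in WT, 2 members were called, and the count was 1 with RMA steps and 1 with the normexp correction (offset 50), 0 with the replicate number (slide) as a block, 0 with replicates 1 and 2 averaged as 1 sample, 5 with unadjusted p, and 0 to 2 with any array left out. With replicates 1 and 2 averaged, which leaves fewer samples, the adjusted p of SAUR64 and SAUR26 was 0.564 for both. Of all loci, 0.223% were called for PSY1 in WT in the main fit. The share was 0.0547% with RMA steps, 0.251% with normexp, 0% with the block, 0% with replicates averaged and 2.72% with unadjusted p. For psy1r against WT the count of 1 became 0 with probes well above background on all arrays, which removes SAUR46 from the test, 4 with array weights, 0 with the methods' t-test, 0 with replicates 1 and 2 averaged, 5 without replicate 3 of any group, 2 with unadjusted p, 2 with no limit on the fold and 1 to 2 with any array left out. For psy1r + PSY1 against WT + PSY1 the count of 1 became 3 with RMA steps, 2 with normexp, 2 with probes above background on all arrays, 2 with array weights, 0 with the methods' t-test, 0 with replicates 1 and 2 averaged, 5 without replicate 3, 3 with unadjusted p and 0 to 3 with any array left out. For PSY1 in psy1r the count of 0 became 1 without replicate 3 and 0 to 1 with any array left out. For the interaction the count of 0 became 2 with unadjusted p and 0 to 2 with any array left out.

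The member median for PSY1 in WT (0.34) was 0.20 with normexp, 0.24 with array weights, 0.23 without replicate 3 and 0.23 to 0.42 with any array left out. For the interaction (-0.04) it was -0.16 with RMA steps, -0.17 with array weights and -0.37 to -0.05 with any array left out. Between treated lines (-0.12) it was -0.17 with RMA steps, -0.04 with normexp, -0.08 with the replicate block, -0.04 without replicate 3 and -0.17 to -0.08 with any array left out. Between untreated lines it was -0.12 to 0.20 with any array left out. For PSY1 in psy1r it kept within its spread, at 0.08 to 0.24. The block on replicate number ended the calls of SAUR64 and SAUR26 and no other call of a member. For psy1r against WT, all loci called were 1.08% with probes above background and 5.82% with array weights. They were 0.0365% with the methods' t-test, 0% with replicates averaged, 3.51% with unadjusted p and 1.47% with no fold limit. Between treated lines they were 2.51% with RMA steps, 1.91% with normexp, 1.59% with probes above background and 0.853% with array weights. They were 0.73% with the methods' t-test, 0.00912% with replicates averaged and 4.81% with unadjusted p. All loci called ranged over the settings from 0% to 2.72% for PSY1 in WT, 0% to 5.82% for psy1r against WT, 0.00912% to 5.79% between treated lines, 0% to 2.52% for PSY1 in psy1r and 0% to 3.32% for the interaction.

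Among the genes named by rule, signs turned only in values that were not called. SAUR25, which was not among them, turned from negative to positive for PSY1 in psy1r without replicate 3, as given above. Between treated lines SAUR26 was 0.05 with RMA steps, 0.04 with normexp, 0.00 with the block, 0.04 without replicate 3 and -0.11 to 0.06 with any array left out. SAUR41 was -0.06 there without replicate 3 and -0.08 to 1.12 with any array left out, -0.36 to 3.96 for PSY1 in WT and -3.99 to 0.34 for the interaction. For PSY1 in psy1r, SAUR3 was 0.07 with array weights and -1.16 to 0.12 with any array left out, SAUR34 was -0.57 with array weights and -0.67 to 2.01, and SAUR54 was 0.49 without replicate 3. SAUR34 was -0.60 to 2.53 for psy1r against WT, and SAUR54 was 0.10 for the interaction without replicate 3. SAUR46 was -0.30 with array weights, -0.33 without replicate 3 and -0.33 to 0.44 with any array left out for PSY1 in WT, -0.08 with normexp and -0.23 to 1 for the interaction, and 0.00 without replicate 3 and -0.08 to 1.15 for PSY1 in psy1r. SAUR64 was -0.02 with array weights, -0.03 without replicate 3 and -0.03 to 0.29 with any array left out for psy1r against WT.

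With 2 or 3 arrays a group and a replicate that stands apart, differences below about the spread between replicates were not detectable here. Probes at or below background give bounds only. Where a group was left with 1 array, that array was assumed to vary like the other groups.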

Other observations

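Loci with 2 tested probes gave a second reading. For SAUR52 the other probe had a log2 change of -0.23 after PSY1 in WT, against -0.29 for the probe used, and of -0.97 against -0.75 for psy1r against WT. For SAUR49 the values were -0.26 and -0.32, and -0.03 and -0.30. For SAUR9 the other probe had -0.09 against 0.18 after PSY1 in WT, -0.15 against 0.38 for psy1r against WT, -0.01 against -0.50 after PSY1 in psy1r and 0.09 against -0.69 for the interaction.

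Clusters differed in how far their genes moved together over the 11 arrays. The median pairwise correlation was 0.87 over 3 pairs in SAUR26 to SAUR28, 0.82 over 10 pairs in SAUR49 to SAUR5 and 0.60 over 28 pairs in SAUR61 to SAUR68, and it was -0.34 over 3 pairs in SAUR14 to SAUR16. In SAUR49 to SAUR5 the lowest pair was at -0.70. These correlations describe arrays that share groups and slides.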
